A study of Rattus norvegicus with 43 samples.

Results

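The members of this group are the rat genes of the proteasome and of ubiquitin conjugation that 1 platform gene symbol names on the array, with a symbol that begins with Psma, Psmb, Psmc, Psmd, Psme, Ube2, Uba or Usp. They were 43 of the 4736 genes with such a probe set, held by 69 probe sets, and 17 of the 43 had several; each gene is given by the probe set of highest mean signal. By role they were 6 alpha subunits of the 20S core, 5 constitutive beta subunits, 4 genes of the immunoproteasome and its activator (Psmb8, Psmb9, Psme1, Psme2), the other activator Psme4, 5 ATPases and 6 non-ATPase subunits of the 19S particle, 11 ubiquitin-conjugating enzymes, 3 ubiquitin-specific proteases and Ubac2 and Ubald1. The last 2 carry a ubiquitin-associated or related domain and were caught by the letters of their symbols; no ubiquitin-activating enzyme was among the members. A further 7 probe sets that name several genes, among them those for Psmb6, Psma3 and Psme3, were left out, and Psmb7 and Psmb10 were not analysed here. Tests had 40 members above the filter on low signal in liver and in lung and 41 in mammary gland and in the organ comparison. Ube2d2b and Ube2m were below it throughout, and Ube2e3 in liver and lung.

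Each of the 43 arrays held RNA from liver, lung or normal mammary gland of female Sprague-Dawley rats that were 100 days old when treatment began and were treated for 7 days. Targretin, a synthetic ligand selective for the retinoid X receptor, was delivered by gavage, 60 mg for each kg of body weight. The natural dual ligand 9-cis-retinoic acid (9cRA) was given at 100 mg per kg diet, and the synthetic retinamide 4-hydroxyphenylretinamide (4HPR) at 782 mg per kg diet. Control rats received diet alone, and no gavage control is named. Groups held 4 arrays, except 3 for Targretin in each organ, for 4HPR in mammary gland (replicates 2, 3 and 4) and for diet in lung (replicates 2, 3 and 4). The agents differed in dose and route, so their values are set side by side and not compared with each other, and in each organ all 3 share the same diet arrays. Nothing in the labels says whether replicates came from separate rats, or whether same-numbered arrays of different organs share a rat. The tests treat the arrays as independent and measure the spread between these samples.

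The proteasome is the main protease of the cytosol and nucleus. Its 20S core is a barrel of alpha rings, which gate entry, around beta rings that carry the active sites, and the 19S particle on its ends binds ubiquitinated proteins, unfolds them with its ATPases and feeds them in. Ubiquitin is attached through activating, conjugating (E2) and ligating enzymes and taken off by deubiquitinases. Interferon replaces the catalytic beta subunits by Psmb8 and Psmb9 and raises the activator pair Psme1 and Psme2, which shifts the peptides made for presentation on major histocompatibility complex class I.

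The labelled organs were seen in their markers. The summed signal of 11 hepatocyte genes was 542148 to 959691 in liver, that of 8 lung epithelial genes 253766 to 474645 in lung, and those of 8 adipocyte and 9 mammary epithelial genes 134252 to 315813 and 81440 to 411898 in mammary gland. Hepatocyte genes were also read outside liver: their sum was 76942 to 124956 on the diet mammary arrays and 5464 to 30149 on the Targretin mammary arrays, and in lung it reached 154938 on 1 4HPR array. In Targretin mammary gland all 11 tested hepatocyte genes passed the test as lower. The skeletal muscle sum was 55279 on the Targretin mammary array of replicate 3 and at most 3139 on the other mammary arrays. Bulk RNA cannot tell fewer cells of a type from less RNA per cell.

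The ratio of the 3′ to the 5′ control probe set for beta-actin, a measure of how complete the labelled RNA was, ran from 1.12 to 2.96 over the liver arrays (median 1.36), from 1.03 to 5.46 over the lung arrays (median 1.49) and from 2.86 to 6.21 over the mammary arrays (median 3.7). The high array of liver was 4HPR replicate 4 and that of lung Targretin replicate 2. Within mammary gland the diet arrays lay at 3.71 to 6.21 and the Targretin arrays at 2.86 to 3.69. For 14 pairs of probe sets made to the same member sequence, the log2 difference inside a pair was compared with its level in diet liver. It was taken as the probe set whose name ends in _g_at minus the one that ends in _at. In these pairs the chosen probe set was the _g_at one, except for Ube2b and Ube2g1. The median difference was higher by 0.83 to 1.29 on diet mammary arrays, by 0.36 to 0.66 on Targretin mammary arrays and by 0.083 to 0.25 on diet lung arrays. Over all 553 such pairs on the array the shift was 0.54 to 0.85 in diet mammary gland and 0.21 to 0.24 in Targretin mammary gland. So the probe sets of a member did not move together between organs, and differences that involve mammary gland depend on which probe set is read. Opposite signs between probe sets of 1 gene were also found within liver and lung, as given below. The part of RNA quality and of liver RNA in the mammary results was not tested beyond the fit with the actin ratio given with them.

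**Figure D1:**
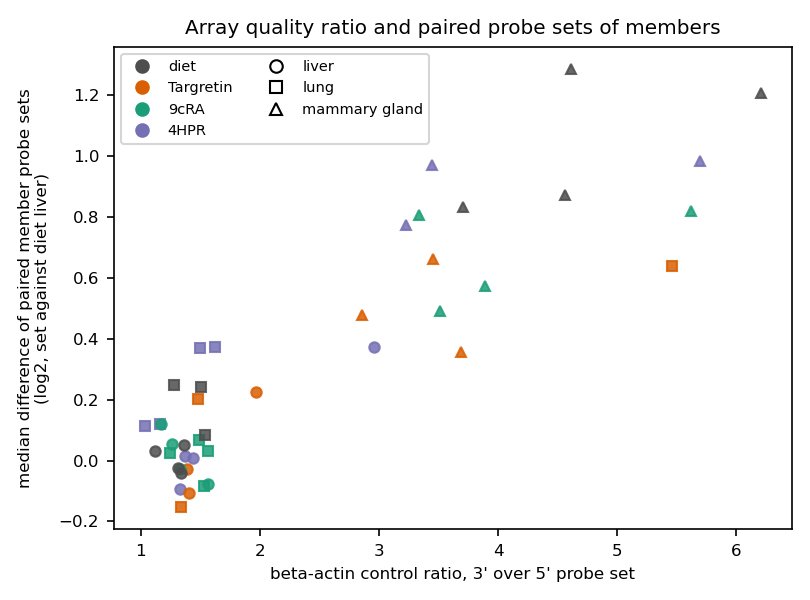
Each point is an array, by its beta-actin ratio (horizontal) and the median log2 difference between paired probe sets of members, set against diet liver (vertical); colours give the agent and shapes the organ. Mammary arrays (triangles) lie apart from most liver and lung arrays, and within mammary gland the Targretin arrays lie below the diet arrays on the vertical axis.

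Promoters of the interferon-inducible members are shown because of calls in mammary gland under Targretin. On the chosen probe sets Psmb8 and Psme2 were the immunoproteasome genes called higher there. The second probe set of Psmb9 was called higher as well, as given below, and no relation between motifs and changes was tested. Sequences are RefSeq's on build GRCr8, 5′ to 3′ on the gene's strand, and 42 of the 43 members have an entry. The windows run from 250 bases before the start to 50 after, and both strands were searched. The interferon response element, searched as GAAA, any 2 bases and GAAA, was in 3.77% of all 27457 promoters and in 4 of the 42 member promoters (Psma4, Psmb3, Psmb8 and Psme2). Capitals mark the match, which in Psmb8 and Psmb3 lies on the opposite strand.
Psmb8 (chr20:4657016-4657045, minus strand): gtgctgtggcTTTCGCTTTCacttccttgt
Psme2 (chr15:33052785-33052814, minus strand): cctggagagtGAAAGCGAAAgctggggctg
Psmb3 (chr10:83193634-83193663, plus strand): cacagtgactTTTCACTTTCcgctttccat
Psma4 (chr8:64236276-64236305, plus strand): gtacagaagaGAAAATGAAAgtggagtgca
The first match base lay 4 bases before the start in Psmb8 and 53 before it in Psme2. A gamma-activated sequence, TTCNNNGAA, was in 8.68% of all promoters and, among members, in Psmb8 alone. The 250 bases before the start of each gene follow, with complete matches to either motif in capitals.
Psmb8 upstream (chr20:4657032-4657281, minus strand): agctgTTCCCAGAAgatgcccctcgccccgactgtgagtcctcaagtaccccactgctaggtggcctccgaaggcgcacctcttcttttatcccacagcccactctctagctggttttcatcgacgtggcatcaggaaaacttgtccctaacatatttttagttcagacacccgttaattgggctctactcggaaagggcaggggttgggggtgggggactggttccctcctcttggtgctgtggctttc
Psme2 upstream (chr15:33052752-33053001, minus strand): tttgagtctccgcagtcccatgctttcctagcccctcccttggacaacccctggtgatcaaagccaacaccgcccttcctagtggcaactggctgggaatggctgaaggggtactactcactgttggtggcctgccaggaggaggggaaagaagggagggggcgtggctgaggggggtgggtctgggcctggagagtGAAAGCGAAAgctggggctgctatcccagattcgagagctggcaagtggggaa
Neither motif was found in the windows of Psmb9 or Psme1. In the genome Psmb8 and Psmb9 have 1 protein-coding gene between them, Tap1, and Psme1 and Psme2 also have 1, Emc9. A match of letters is not a binding site.

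In mammary gland, Targretin went with higher signal of Psmb8, the inducible counterpart of the chymotrypsin-like subunit, of Psme2, a subunit of the interferon-inducible activator, of the 19S scaffold subunit Psmd2, of the E2 enzyme Ube2d2 and of Ubald1. The core subunit Psma5, the 19S scaffold subunit Psmd1, Ube2a, an E2 of the histone and DNA repair pathway, and Ube2g2, an E2 of degradation from the endoplasmic reticulum, were lower. These 9 of 41 members tested (22%) passed limma's test with Benjamini-Hochberg adjustment over all probe sets at an adjusted p under 0.05, against 13.2% of all 6051 probe sets tested. The 5 higher calls stand beside 7.97% of all probe sets called higher and the 4 lower calls beside 5.19% called lower. The median change of members was 0.00 in log2, beside 0.11 over all probe sets. Where arrays of called genes are said below not to overlap, this follows in part from how those genes were selected. The share of probe sets without overlap was not counted over the whole array.

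Psmb8 had signals of 4237, 2184, 1839 and 3534 on the diet mammary arrays and of 4476, 6379 and 5526 on the Targretin arrays. Every Targretin array lay above every diet array, the nearest by a small margin. The log2 difference was 0.95 ± 0.27 (SE), with an adjusted p of 0.031 (limma). Psme2 had 1624, 533, 735 and 1714 under diet and 2456, 2089 and 2466 under Targretin. The groups did not overlap, and 2 diet arrays, replicates 2 and 3, were low for Psme2 and Psmb8 alike. On diet replicates 1 to 4 the actin ratio was 3.71, 6.21, 4.61 and 4.56, and the shift between paired probe sets of members was 0.83, 1.21, 1.29 and 0.87, so the low arrays were those with the larger shift. With 1 of these arrays left out, whichever it was, Ubald1 was the 1 call left of the 9, and with the actin ratio as a covariate it was Ube2g2. The Psme2 difference was 1.15 ± 0.33 with an adjusted p of 0.034 (limma). Ubald1 had 948, 434, 417 and 778 under diet and 1689, 1603 and 1707 under Targretin, again without overlap and with diet replicates 2 and 3 low. Its difference, 1.40 ± 0.31 with an adjusted p of 0.010 (limma), had the smallest adjusted p among members in this comparison.

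Ube2d2, which works with many ligases, had 863, 931, 997 and 642 under diet and 2273, 1408 and 1483 under Targretin. All Targretin arrays were above the diet arrays, by 0.96 ± 0.29 in log2 (adjusted p 0.040, limma). Psmd2 had 2238, 1284, 2305 and 1944 under diet and 4123, 2778 and 2945 under Targretin. These groups did not overlap either, and the difference was 0.76 ± 0.24 (adjusted p 0.048, limma).

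Among the lower members, Ube2g2 had 989, 639, 1202 and 849 under diet and 159, 476 and 399 under Targretin. The Targretin arrays were all below the diet arrays, with a difference of -1.40 ± 0.41 (adjusted p 0.036, limma). Psmd1 had 8117, 10933, 10031 and 8143 under diet and 6853, 4428 and 5444 under Targretin. The groups did not overlap, and the difference was -0.75 ± 0.20 (adjusted p 0.026, limma). Ube2a had 3249, 4342, 3764 and 3129 under diet and 2097, 1933 and 2590 under Targretin. It was lower by -0.70 ± 0.21 without overlap (adjusted p 0.040, limma). Psma5 had 6561, 8502, 7856 and 6930 under diet and 4576, 4866 and 5947 under Targretin. It too had no overlap, with a difference of -0.54 ± 0.16 (adjusted p 0.043, limma).

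**Figure D2:**
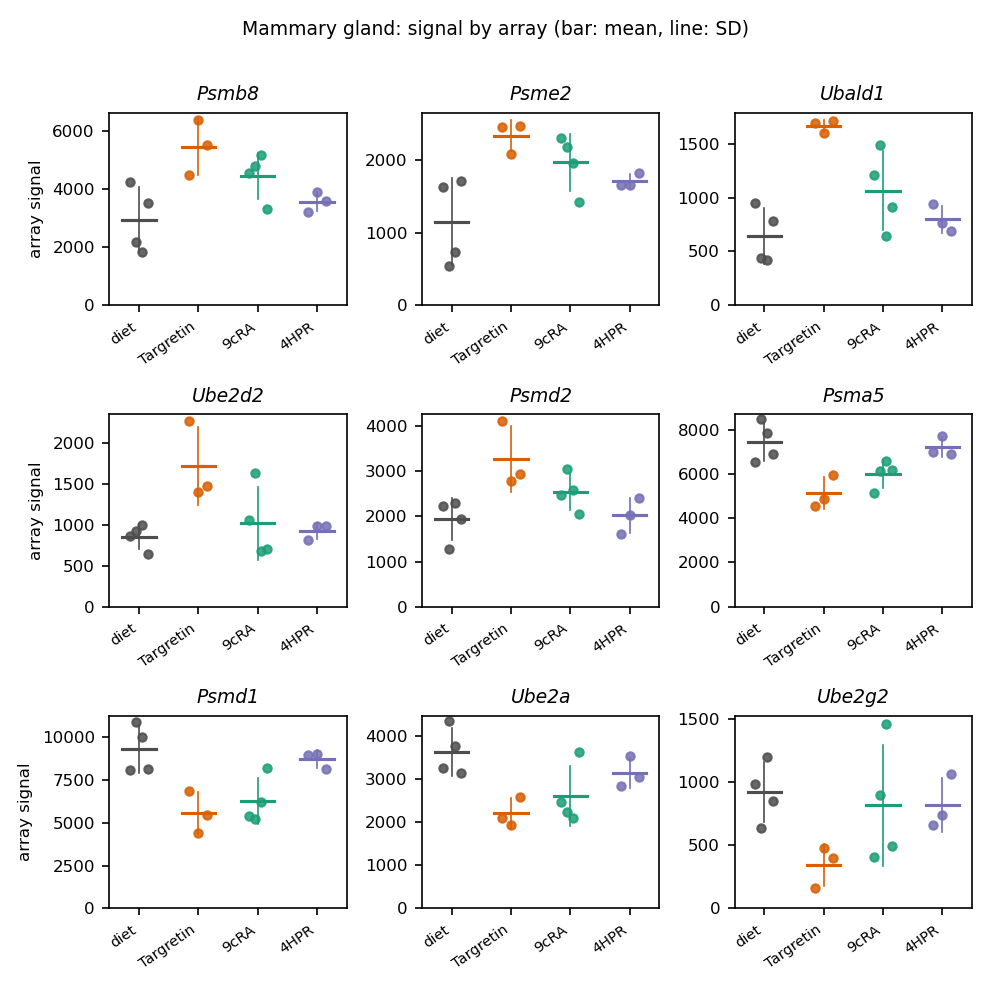
Array signal (vertical, linear from 0) of the 9 members called in Targretin mammary gland, by treatment; points are arrays, bars group means and lines 1 SD. In each panel the 3 Targretin arrays lie on 1 side of the 4 diet arrays. The panels were chosen by the test on these same arrays, so this separation adds no support to the calls.

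The other probe sets of these genes did not all move the same way. For Psma5 the second probe set differed by 0.62 ± 0.22 (adjusted p 0.072, limma), the opposite sign. For Psmd1 the 3 others differed by -0.73, -0.32 and 0.40 and none passed. For Psmb9, the inducible partner of Psmb8, the probe set of highest signal read 3383, 2728, 3178 and 3844 under diet and 2696, 3092 and 3700 under Targretin, which overlap. Its difference was -0.05 ± 0.20 (adjusted p 0.89, limma), whereas its second probe set differed by 0.96 ± 0.27 (adjusted p 0.028, limma). Psmb5, the constitutive subunit that Psmb8 replaces, had -0.35 ± 0.16 on its chosen probe set (adjusted p 0.16, limma) and 0.93 and 0.65 on the others. Psme1, the partner of Psme2, had -0.16 ± 0.15 and 0.36 ± 0.24 on its probe sets, and neither passed. Of 15 genes with several tested probe sets in this comparison, 9 had at least 1 pair of opposite sign.

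By class, on the chosen probe sets, 2 of 4 immunoproteasome genes rose in Targretin mammary gland, 1 of 6 alpha subunits fell and none of 5 constitutive beta subunits passed. Of all probe sets 7.97% were called higher and 5.19% lower. All 6 alpha subunits had values below 0 on these probe sets (median -0.43), among them Psma6 at -0.58 ± 0.18 (adjusted p 0.051, limma). The second Psma5 probe set had the opposite sign, and paired probe sets shifted between diet and Targretin mammary arrays. The class values therefore depend on the probe set read. The 19S ATPases, which unfold substrates, had 4 of 5 values above 0 (median 0.47) and no call. Of 9 E2 enzymes 1 rose and 2 fell, and the 3 ubiquitin-specific proteases had values of 0.16 to 0.97 with no call. The 0.97 was that of Usp37, whose diet arrays read 785, 894, 919 and 66.6 and whose Targretin arrays read 941, 1080 and 973; without diet replicate 4 its value was 0.20 ± 0.20. The calls were close to the threshold and rested on few arrays. The count of 9 became 1 without diet replicate 2 or 3, 2 without Targretin replicate 2, 3 without Targretin replicate 1 or 3, and 5 without diet replicate 4 or 4HPR replicate 4. Ubald1 passed in all 14 fits that left out 1 array (adjusted p up to 0.037, limma). With the actin ratio as a covariate, an alternative added after the data were seen, 1 member passed, Ube2g2 at -1.83. Without the 4 arrays in doubt (diet liver replicate 2, 4HPR liver replicate 4, Targretin lung replicate 2 and Targretin mammary gland replicate 3) 3 passed, Ubald1, Psma5 and Psma1. These 4 were listed by name and not by a cut on the actin ratio. Diet liver replicate 2 had a ratio of 1.315, and diet mammary gland replicate 2, at 6.211, was kept.

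Single calls in this comparison were lost as follows when 1 array was left out, with the highest adjusted p of limma's test. Psmb8 lost its call without Targretin replicate 2 or 3 or diet replicate 2 or 3 (0.12), and Psmd1 without the same 4 arrays (0.12). Psme2 lost it without any Targretin array or diet replicate 2 or 3 (0.099), and Ube2a without those or 4HPR replicate 4 (0.14). Ube2g2 lost it without any diet array or Targretin replicate 1 or 3 (0.15). Ube2d2 lost it without any Targretin array, diet replicates 2, 3 or 4 or 4HPR replicates 3 or 4 (0.15). Psma5 lost it without Targretin replicates 1 or 2, diet replicates 2, 3 or 4, any 4HPR array or 9cRA replicate 2 (0.13). Psmd2 lost it in 12 of 14 fits (0.17), and kept it without diet replicate 1 or 9cRA replicate 4. Along with these calls the hepatocyte sum, the actin ratio and the shift between paired probe sets were lower on the Targretin than on the diet arrays, as given above.

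No member passed in mammary gland for 9cRA or 4HPR, where 0% of all probe sets passed limma's test. At an unadjusted p under 0.05 limma gave 8 and 1 of 41 members, beside 1129 and 181 of all 6051 probe sets. The fit with array weights called no member either. For 9cRA the Psme2 signals were 2310, 2184, 1957 and 1422 against the diet values above, and the groups overlapped. The difference was 0.89 ± 0.31 (adjusted p 0.16, limma), that of Psmb8 0.65 ± 0.25 and that of Ubald1 0.71 ± 0.28. For 4HPR, Psme2 had 1657, 1659 and 1823, with a difference of 0.72 ± 0.33 (adjusted p 0.999, limma). These share the diet arrays with the Targretin comparison, including the low replicates 2 and 3 for Psme2.

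Around the members, lists of genes of the pathway gave few calls in Targretin mammary gland. Over all probe sets 13.2% were called there, 7.97% higher, and the single calls below are no result about a list. Of 9 tested ubiquitin ligases and cullin parts 1 rose, the ligase Nedd4 (1.5 ± 0.40, adjusted p 0.026, limma), and of 6 assembly and shuttle factors 1 rose, the segregase Vcp (1.0 ± 0.27, adjusted p 0.025, limma). Of 13 genes of interferon response and class I presentation 2 rose, the chaperone Calr (1.04 ± 0.28) and the interferon-induced Oas1a (0.72 ± 0.22), with a median of 0.30 over the list. At an unadjusted p under 0.05 limma gave 4, 2 and 6 genes of these lists, in that order, beside 1833 of all 6051 probe sets. Other deubiquitinases (3 tested) and ubiquitin-like modifiers (3 tested) gave no call by limma, and none had an unadjusted p under 0.05. Macrophage and antigen-presenting genes, which bear on Psmb8, gave no call by limma among 13 tested, 5 of them at an unadjusted p under 0.05, with a median of 0.44; their summed signal was 66859 to 82380 on the diet and 62348 to 112767 on the Targretin arrays.

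In liver, Targretin and 9cRA each went with lower signal of Psma1, an alpha subunit of the core, and of Psmc5, an ATPase of the 19S base. With 9cRA the ATPase Psmc4 also fell, and with Targretin the 19S lid subunit Psmd11 and Ube2j2, an E2 anchored in the endoplasmic reticulum, rose. This made 4 of 40 members (10%) for Targretin, against 11.2% of all 6071 probe sets, and 3 of 40 (7.5%) for 9cRA, against 5.16%. The 2 higher and 2 lower calls for Targretin stand beside 4.89% and 6.28% of all probe sets, and the 3 lower calls for 9cRA beside 2.6%, with no member among the 2.55% called higher. After quantile normalization the Targretin calls were 2 higher and 4 lower, with Psma2 and Psma5 added. A share this near the background is no feature of the members. Their median change was -0.15 for Targretin and -0.14 for 9cRA, beside -0.01 over all probe sets in both.

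Psma1 had 3658, 4003, 3849 and 3525 on the diet liver arrays, 2904, 2062 and 2305 with Targretin, and 2177, 2697, 2760 and 2292 with 9cRA. All treated arrays of both groups were below all diet arrays. The log2 differences were -0.64 ± 0.15 (adjusted p 0.010) and -0.60 ± 0.14 (adjusted p 0.019, both limma). A second, dim Psma1 probe set, with a mean signal of 194, went the other way in both, by 1.11 ± 0.40 (adjusted p 0.086) and 1.48 ± 0.37 (adjusted p 0.025, limma). With 4HPR the Psma1 signals were 2469, 2701, 2999 and 3289, also below the diet arrays, with a difference of -0.39 ± 0.14 that did not pass (adjusted p 0.14, limma).

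Psmc5 had 2281, 2255, 1954 and 2461 under diet, 1438, 1590 and 1497 with Targretin and 1457, 1736, 1367 and 1131 with 9cRA. Neither treated group overlapped the diet group. The differences were -0.55 ± 0.17 (adjusted p 0.046) and -0.65 ± 0.16 (adjusted p 0.022, both limma). Psmc4 had 2943, 1938, 2866 and 3154 under diet and 1549, 1976, 1990 and 1860 with 9cRA. Diet replicate 2 lay within the 9cRA range, so the groups overlapped, and the difference of -0.54 ± 0.15 was just past the threshold (adjusted p 0.049, limma). With Targretin Psmc4 had 2058, 1994 and 2021, a difference of -0.40 ± 0.16 (adjusted p 0.14, limma).

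Psmd11 had 3303, 3490, 2686 and 3984 under diet and 6440, 6792 and 4228 with Targretin. Targretin replicate 3 was near the highest diet array, though still above it, and the difference was 0.77 ± 0.22 (adjusted p 0.031, limma). With 4HPR Psmd11 had 5223, 6774, 5556 and 3828, which overlapped the diet arrays at 0.65 ± 0.20 (adjusted p 0.098, limma). Ube2j2 had 1923, 3265, 2427 and 2846 under diet and 4166, 5318 and 3798 with Targretin. These did not overlap, at 0.76 ± 0.21 (adjusted p 0.023, limma). Psma5 had 5229, 5001, 5424 and 5247 under diet, 4063, 3489 and 3783 with Targretin and 4135, 3718, 4371 and 3681 with 9cRA. Both treated groups were below diet, at -0.47 ± 0.15 (adjusted p 0.052) and -0.39 ± 0.14 (adjusted p 0.11), and neither passed limma's test.

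**Figure D3:**
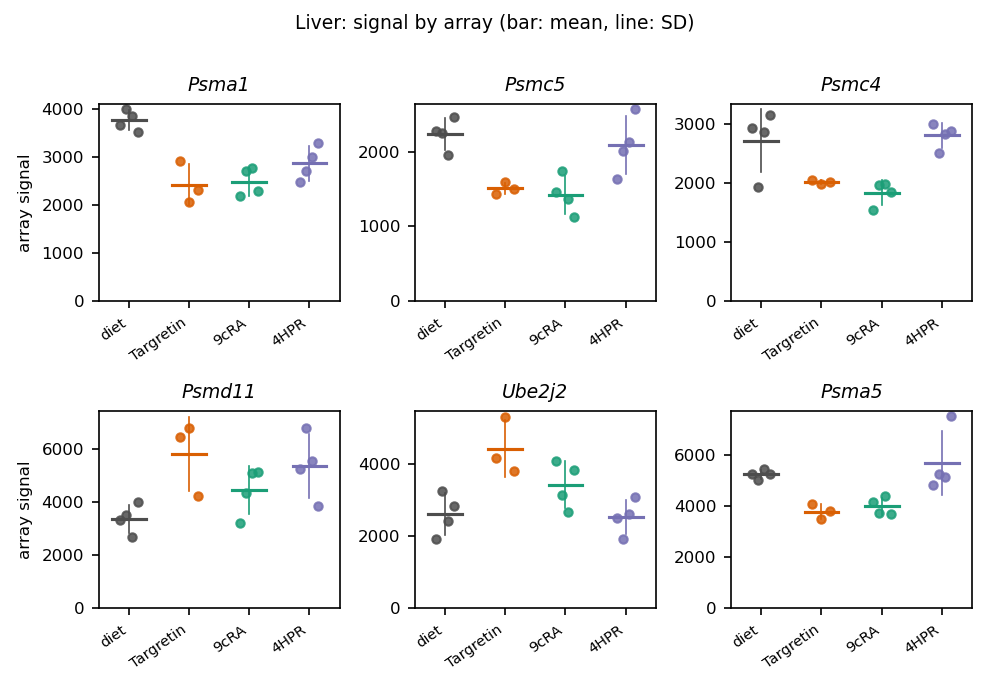
Array signal (vertical, linear from 0) of the 5 members called in liver and of Psma5, by treatment; points are arrays, bars group means and lines 1 SD. The diet arrays of Psma1 and Psma5 lie above all Targretin and 9cRA arrays, and 1 diet array of Psmc4 lies among the treated ones.

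By class, all 6 alpha subunits (median -0.37) and all 5 ATPases (median -0.32) had values below 0 with Targretin, of which 1 in each class passed. With 9cRA it was 5 of 6 (median -0.28) with 1 call and 5 of 5 (median -0.49) with 2 calls. The 5 constitutive beta subunits had medians of 0.00 and -0.04 and no call, and none of the 4 immunoproteasome genes passed. These class values are of the chosen probe sets and depend on that choice. Of 16 genes with several tested probe sets, 8 had another of opposite sign with Targretin and 6 with 9cRA. With 9cRA 1 gene was called both ways, as given for Psma1 above. The counts rested on single arrays. For Targretin the count of 4 became 7 without 4HPR replicate 4, 2 without Targretin replicate 1 or diet replicate 3, 1 without diet replicate 1 and 0 without Targretin replicate 2. For 9cRA the count of 3 became 7 without 4HPR replicate 4, 1 without 9cRA replicate 1 or any 1 diet array, and 0 without 9cRA replicate 4. With the actin ratio as a covariate it was 7 for both: for 9cRA Psma5 (-0.41), Psma6 (-0.39), Psmc2 (-0.50) and Psmd1 (-0.45) were added, all lower, and for Targretin Psma5 (-0.55), Psma6 (-0.39) and Psme1 (-0.49), all lower. Without the arrays in doubt it was 7 for Targretin and 6 for 9cRA.

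Single liver calls were lost as follows when 1 array was left out, with the highest adjusted p of limma's test. Psma1 with Targretin lost its call without Targretin replicate 2 (0.072), and with 9cRA without 9cRA replicates 1 or 4 or diet replicates 2 or 3 (0.056). Ube2j2 lost it without Targretin replicates 1 or 2 or diet replicates 1 or 3 (0.13), and Psmd11 without Targretin replicates 1 or 2 or diet replicates 1, 2 or 3 (0.15). Psmc5 with 9cRA lost it without 9cRA replicates 3 or 4 or diet replicates 1, 2 or 4 (0.077). Psmc5 with Targretin lost it without any Targretin array, diet replicates 1, 2 or 4, 4HPR replicates 2 or 3 or 9cRA replicates 1 or 3 (0.13). Psmc4 with 9cRA lost it in 13 of 15 fits (0.14), and kept it without diet replicate 2 or 4HPR replicate 4. Antigen-presenting and macrophage genes moved in the same arrays, with a summed signal of 32261 to 36073 under diet, 19258 to 24912 with Targretin and 24232 to 38376 with 9cRA; their part in the liver values was not tested.

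No member passed for 4HPR in liver, where limma called 2.78% of all probe sets, 1.19% higher and 1.6% lower. Limma gave 4 of 40 members at an unadjusted p under 0.05, beside 1140 of all 6071 probe sets. The fit with array weights called 2 members, Ube2g2 and Psmd11, both higher, and its share over all probe sets is not given here. Ube2g2 had 635, 228, 412 and 417 under diet and 1094, 901, 838 and 974 with 4HPR. The groups did not overlap and the difference was 1.17 ± 0.32 (adjusted p 0.059, limma). It passed without 9cRA replicate 1 or diet replicate 1, and without 4HPR replicate 4 Psmd11 passed in its place (0.80), so each of those fits had 1 call.

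A list of genes of the oxidative stress factors Nfe2l2 and Nfe2l1, which are known to regulate proteasome genes, had calls in liver with Targretin and 9cRA; no relation to the member values was tested. Of 11 tested, 6 passed with Targretin, 5 lower and 1 higher, with a median of -0.62, where 11.2% of all probe sets passed. Nfe2l2 itself differed by -1.29 ± 0.24 (adjusted p 0.0020), the glucuronic acid enzyme Ugdh by -1.14 ± 0.15 (adjusted p 6.1e-05) and malic enzyme Me1 by 1.91 ± 0.25 (adjusted p 7.5e-05, all limma). With 9cRA 3 of 11 passed, beside 5.16% of all probe sets, all lower: thioredoxin reductase Txnrd1 by -0.60 ± 0.15, epoxide hydrolase Ephx1 by -0.68 ± 0.18 and Nfe2l2 by -0.83 ± 0.23 (adjusted p 0.022, 0.041 and 0.041, limma). With 4HPR none of the 11 passed limma's test and 2 had an unadjusted p under 0.05, beside 1140 of all 6071 probe sets. In Targretin mammary gland 1 of 10 tested passed, Gsr, higher by 0.95 ± 0.26 (adjusted p 0.027, limma), beside 13.2% of all probe sets. In liver with Targretin Gsr was lower, by -0.76 ± 0.18 (adjusted p 0.010, limma). The core of the antioxidant response element, TGACNNNGC, was in 12.2% of all promoters and in 9 of 42 member promoters. These were Psmb2, Psmb5, Psmd1, Psme4, Ubac2, Ube2d2, Ube2e3, Ube2g2 and Ube2q2. Psma1, Psmc4, Psmc5, Psmd11 and Ube2j2, the members called in liver, were not among them. The matches of Psmb5 and Psmd1 before the start are shown because these genes are the catalytic subunit and the scaffold subunit described here, with the match in capitals. They are examples from the 9, and neither gene was called in liver in the reported fit.
Psmb5 (chr15:32047421-32047449, minus strand): cgtgaagctgTGACGTCGCggcgttgccc
Psmd1 (chr9:94157796-94157824, plus strand): accagatctaTGACCTCGCgagaattata
The nuclear receptor half-site AGGTCA was in 15.7% of all promoters and in 3 of 42 member promoters, Psma2, Psmd1 and Psmd10. In Psmd1 its match on the opposite strand overlaps the antioxidant match. A direct repeat, 2 copies of AGGTCA with any 1 base between them, was in 16 of 27457 promoters and in no member's.

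In lung no member passed with any agent. Limma called 2.39% of all 5932 probe sets for Targretin, 1.38% higher and 1.01% lower, and 0% for 9cRA and 4HPR. At an unadjusted p under 0.05 it gave 6, 4 and 1 of 40 members for Targretin, 9cRA and 4HPR, beside 1390, 656 and 273 of all probe sets. The fit with array weights called 2, 6 and 2 members, and its share over all probe sets is not given here. With Targretin the alpha subunits had a median of -0.46, with Psma4 at -0.58 ± 0.18 (adjusted p 0.092) and Psma2 at -0.57 ± 0.21 (adjusted p 0.12, limma). These are values of the chosen probe sets. Of 16 genes with several tested probe sets, 6 had another of opposite sign in that comparison. Without Targretin replicate 3, 2 alpha subunits passed, Psma1 and Psma2; Psma1 is named here after its values were seen. Psmb8 with 9cRA had 5416, 6968, 7997 and 6496 against 6252, 3749 and 3681 under diet. The groups overlapped because of 1 high diet array, replicate 2, and the difference was 0.59 ± 0.23 (adjusted p 0.39, limma). Psme4, an activator that works without ubiquitin, had its lowest values here: -0.95 ± 0.32 with 9cRA and -0.81 ± 0.34 with Targretin, neither past the threshold (adjusted p 0.37 and 0.18, limma). Its other 7 values ran from -0.67 to -0.19.

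**Figure D4:**
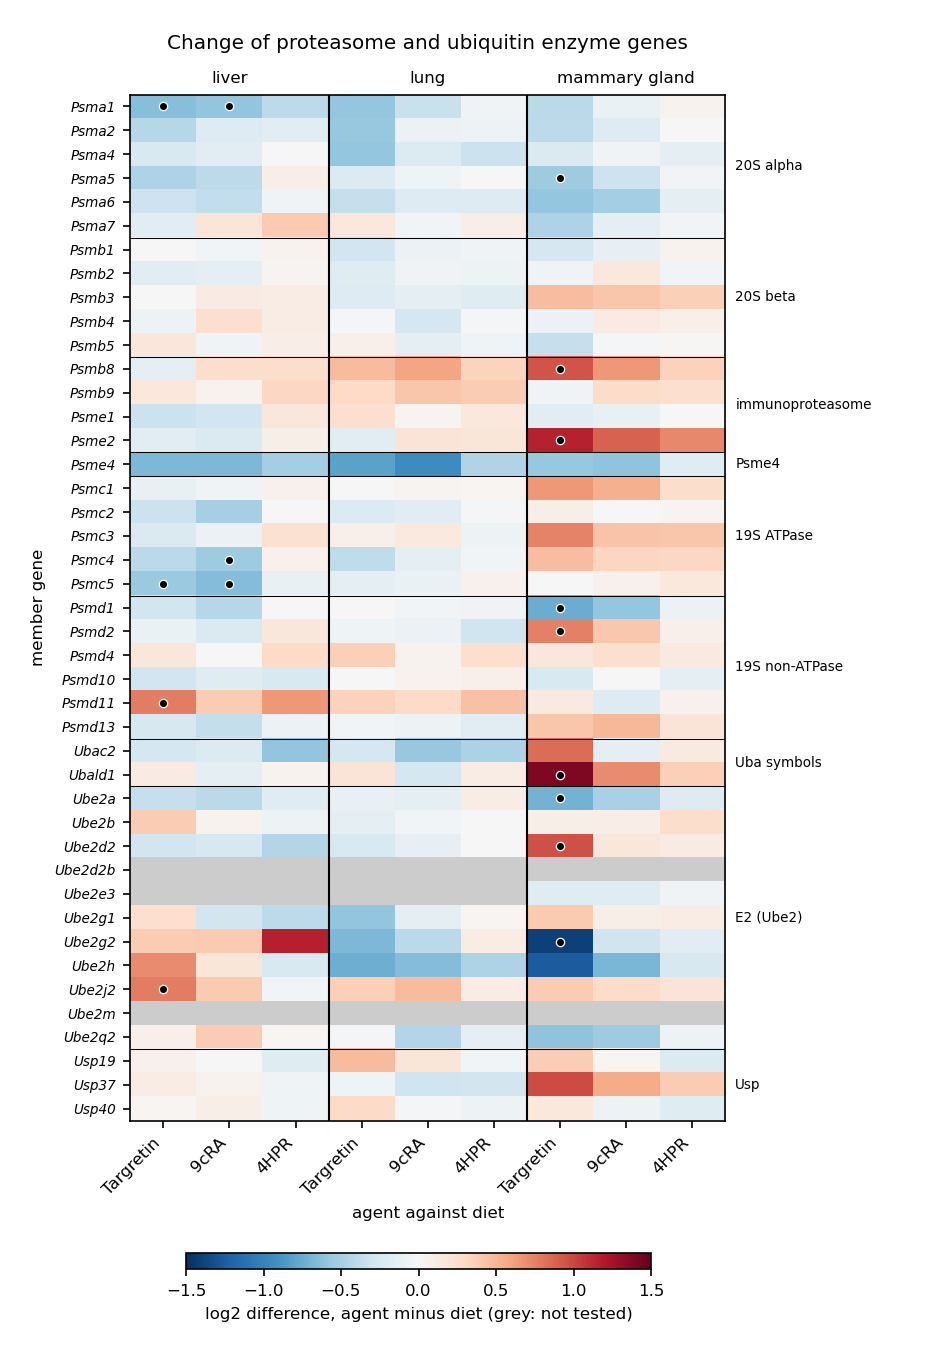
Log2 difference of each member between an agent and diet (colour) for 3 agents in 3 organs; rows are genes by class, grey cells were not tested and black dots mark an adjusted p under 0.05. Dots lie in Targretin liver, 9cRA liver and Targretin mammary gland, with none in lung.

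Whether the response to an agent differed between organs was tested directly on all 43 arrays. For Targretin 6 of 40 members passed the moderated F test of limma (15%), beside 13.3% of the 5114 probe sets tested. Psme2 differed by -0.17 in liver, by -0.17 in lung and by 1.15 in mammary gland (adjusted p 0.0092), and Psmc4 by -0.40, -0.38 and 0.46 (adjusted p 0.015). Psmd2 had -0.10, -0.06 and 0.76 (adjusted p 0.037), Ubald1 0.13, 0.19 and 1.40 (adjusted p 0.041), Psmc1 -0.11, 0.01 and 0.65 (adjusted p 0.048) and Psmb8 -0.15, 0.48 and 0.95 (adjusted p 0.048). In each the mammary value was the highest of the 3. For 9cRA none passed, beside 0.372% of all probe sets, and for 4HPR none, beside 0%. At an unadjusted p under 0.05 limma gave 7 and 0 of 40 members, beside 602 and 361 of the 5114 probe sets. The fit with array weights called 4 and 1 members, and its share over all probe sets is not given here.

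For these 6, Psme2 passed in all 43 fits that left out 1 array, Psmc4 in 42, Psmd2 in 36, Ubald1 in 31, Psmb8 in 13 and Psmc1 in 11. The count fell to 2 without Targretin liver replicate 1 or 3, Targretin mammary gland replicate 1, diet lung replicate 4 or diet mammary gland replicate 2. It fell to 3 without Targretin mammary gland replicate 3, diet liver replicate 1, 2 or 3, diet lung replicate 3 or diet mammary gland replicate 3, and without the arrays in doubt. The shifts of hepatocyte signal and actin ratio in Targretin mammary gland touch this test as well.

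Among diet-only rats the share of members called was close to that of all probe sets in both comparisons with mammary gland and lower between liver and lung. Between mammary gland and liver 25 of 41 passed (61.0%), beside 61.9% of all 6264 probe sets: 17 were higher in mammary gland (35.7% of all) and 8 lower (26.1%). Between mammary gland and lung 18 passed (43.9%), beside 44.5%, with 9 higher (17.4%) and 9 lower (27.1%), and between liver and lung 12 passed (29.3%), beside 57.9%, all lower in liver (40.4%), with none higher (17.5%). Of the alpha subunits, 5 of 6 were called higher in mammary gland than in liver (median 0.83) and 5 of 6 higher than in lung (median 0.58). Psma6 had 19264, 24366, 21655 and 18582 in mammary gland, 8891, 8661, 9047 and 9150 in liver and 12230, 13050 and 14083 in lung. The 3 organs did not overlap, with 1.22 ± 0.12 between mammary gland and liver (adjusted p 1.1e-06) and -0.55 ± 0.13 between liver and lung (adjusted p 0.0023, limma). Psma7, another alpha subunit, was the highest in mammary gland as well, at 0.99 ± 0.14 over liver, but its second probe set gave -0.64 ± 0.21 (adjusted p 3.1e-05 and 0.016, limma).

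That disagreement was common. Between mammary gland and liver 10 of 15 genes with several tested probe sets had values of opposite sign, and in 7 both directions passed the test. Psmb9 gave 0.98 ± 0.16 and -1.57 ± 0.25, Psmb5 gave 0.55 ± 0.11, -0.59 ± 0.17 and -1.57 ± 0.26, and Psma5 gave 0.50 ± 0.13 and -0.83 ± 0.17, each past the threshold; Psma5 was picked here after its values were seen. Between liver and lung 4 of 15 had opposite signs and none passed both ways. No order between mammary gland and the other organs can be read for those genes from these arrays.

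Fewer genes disagreed in this way between liver and lung, and Psmb9 and Psme1 are given there on their chosen probe sets alone. Psmb9 had 1862, 1566, 1616 and 1496 in diet liver and 4600, 3567 and 3701 in diet lung. Every lung array was above every liver array, and liver was lower by -1.25 ± 0.17 (adjusted p 2.9e-05, limma). Psme1 had 11515, 9460, 9116 and 11586 in liver and 15308, 13364 and 14998 in lung, without overlap, at -0.49 ± 0.13 (adjusted p 0.0071, limma). Psmb8 had 6088, 3849, 4728 and 4454 in liver and 6252, 3749 and 3681 in lung, and Psme2 had 2668, 2594, 2230 and 2796 and 2778, 1834 and 2114. Both overlapped and neither passed. Among ubiquitin enzymes 4 of 9 E2 genes were lower in liver than in lung (median -0.70), beside 40.4% of all probe sets called lower and a median of -0.41 over all of them. These were Ube2h by -1.41 ± 0.35, Ube2g2 by -1.27 ± 0.30, Ube2d2 by -1.22 ± 0.24 and Ube2b by -0.87 ± 0.17 (adjusted p 0.0039, 0.0023, 0.00067 and 0.00061, limma). Ubac2 and Ubald1 were lower in liver by -1.78 ± 0.46 and -1.60 ± 0.29 (adjusted p 0.0044 and 0.00033, limma). The summed macrophage and antigen-presenting signal was 32261 to 36073 in diet liver and 152783 to 252947 in diet lung, and its part in these differences was not tested.

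**Figure D5:**
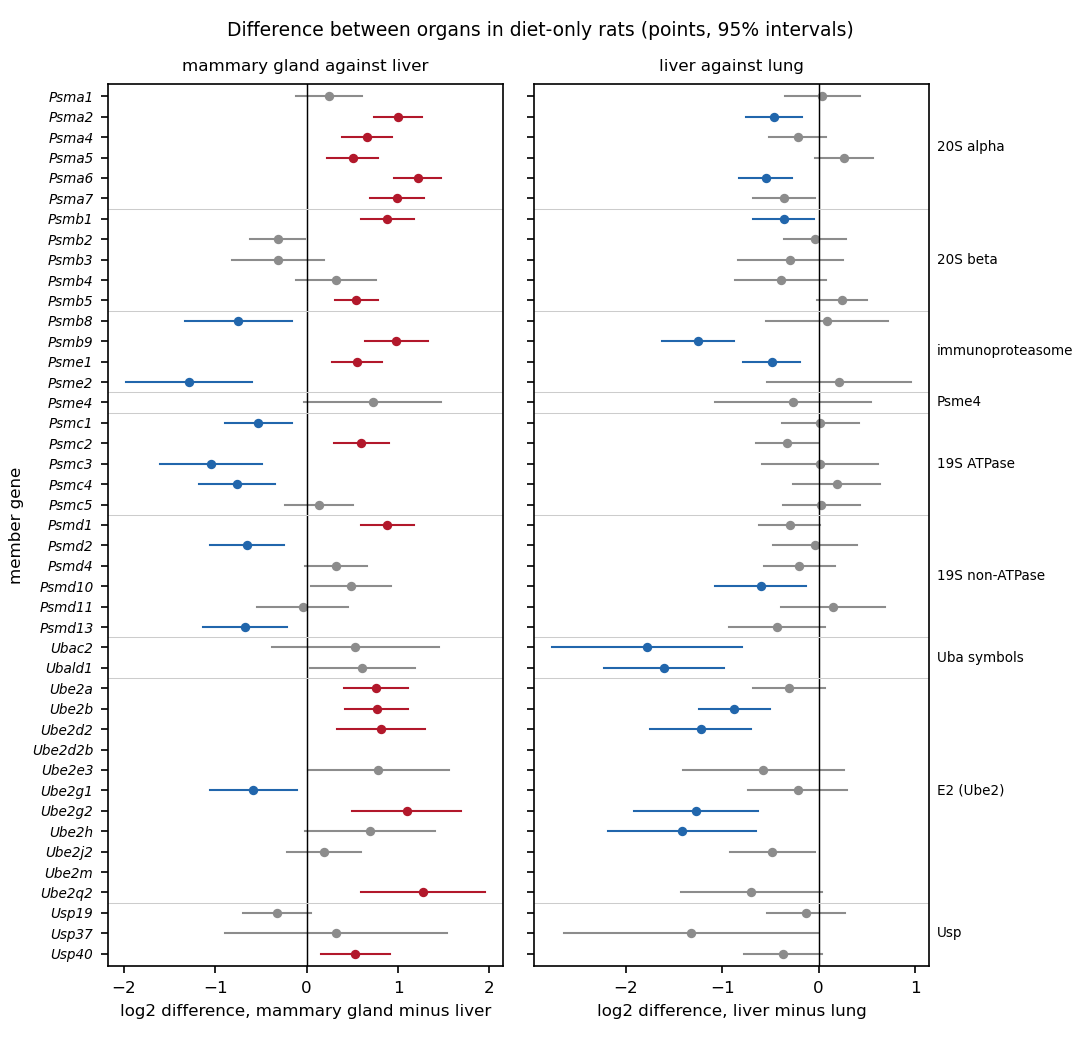
Log2 difference of each member between organs of diet-only rats with 95% intervals (horizontal), mammary gland minus liver (left) and liver minus lung (right); red and blue are higher and lower with an adjusted p under 0.05, grey is not called. Of the 6 alpha subunits, 5 are red on the left, and no member is red on the right. Values are those before arrays were centred on their median.

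Over all probe sets the median difference between liver and lung was -0.41, so arrays scaled to 1 mean are not centred alike. After each array was centred on its median, the members called between liver and lung were 6 higher and 6 lower, and between mammary gland and lung 11 higher and 1 lower. The 6 higher in liver than in lung were Psma1 (0.49), Psma5 (0.72), Psmb2 (0.41), Psmb5 (0.69), Psmc1 (0.47) and Psmc4 (0.64). Psmb9, Ube2h, Ube2g2, Ube2d2, Ubac2 and Ubald1 were still lower in liver than in lung, while Psma6 (-0.10 ± 0.14, adjusted p 0.56), Psme1 (-0.04 ± 0.15, adjusted p 0.85) and Ube2b (-0.43 ± 0.17, adjusted p 0.053) no longer passed limma's test. Psma2, Psmb1 and Psmd10 lost their calls as well. Between mammary gland and liver the split was 16 higher and 10 lower. Without diet lung replicate 4 the count between mammary gland and lung was 11.

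Correlations between members within an organ are listed by class. After group means were taken out, the median correlation between pairs of 20S core genes was 0.40 over 15 liver arrays, 0.53 over 14 lung arrays and 0.15 over 14 mammary arrays. The beta subunits alone had 0.47, 0.56 and 0.03, and the alpha subunits 0.32, 0.47 and 0.51. The 4 immunoproteasome genes had 0.65, 0.54 and 0.33. The 19S particle had 0.22, 0.26 and 0.15, with 0.35, 0.40 and 0.32 for its ATPases and 0.09, 0.07 and 0.11 for the other subunits. For E2 enzymes it was 0.01, -0.05 and 0.13, and for all members 0.10, 0.07 and 0.03. The median correlation of these sets with other probe sets ran from -0.07 to 0.03. Some medians rest on few pairs, 6 for the immunoproteasome genes. The arrays share scaling and RNA quality, so these values are a description, and no difference between classes was tested.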

How the data were processed

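Total RNA of each organ sample was hybridised to 1 Affymetrix rat array. The authors deposited intensity values as MAS5 signal, per the submitters' processing notes; the 2% trimmed mean of an array was 1501.78 to 1503.29, so arrays are scaled to 1 level. Version, background and probe positions are not stated there, and the number of arrays limits precision. Of 8799 probe sets 59 controls were removed; 7006 had 1 gene symbol, 308 several and 1426 none. Tests used limma 3.58.1 in R 4.3.3 (lmFit, eBayes with trend) on log2(signal + 38.1), the 10th percentile of all values, so fold changes of low genes are understated. Probe sets had to exceed the 40th percentile of the array on 3 arrays. Fits were per organ with all 4 groups, over the 11 diet arrays for organs, and over 43 arrays for the difference between organs. Benjamini-Hochberg adjustment covered every probe set tested, threshold 0.05; scripts were tested on simulated data. Members and lists were chosen with earlier results of these data known. Named members were those called, with Psmb5, Psmb8, Psmb9, Psme1 and Psme2 always, up to 3 per class by p, the largest organ differences, and up to 3 called genes per list. The ubiquitin precursor genes were not analysed here. Within an organ, same-numbered arrays of different agents did not deviate together (median correlation -0.0024 in liver, 0.025 in lung, 0.013 in mammary gland). Between organs, the 10 same-numbered pairs of diet arrays had a median of -0.0388, from -0.117 to 0.182. These values cannot tell whether organs came from the same rats.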

Additional observations from a re-analysis of the deposited data

Results flagged for a closer look

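The beta-actin ratio of 2.96 on 1 4HPR liver array, replicate 4, stood far from the other 3 arrays of its group. It was the 1 such value in 31 examined sets of 4 arrays, each set being 1 measure (a gene's signal, this ratio or the shift between paired probe sets) in 1 group; chance gives about 1 in 20. The change with Targretin differed between organs for 6 members by limma's moderated F test: Psme2 (adjusted p 0.0092), Psmc4 (0.015), Psmd2 (0.037), Ubald1 (0.041), Psmc1 (0.048) and Psmb8 (0.048). They were 15% of the 40 members tested, beside 13.3% of all probe sets, and in these 6 the change was highest in mammary gland. With 1 array left out Psmc1 passed in 11 of 43 fits and Psmb8 in 13.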

How the results depend on the processing

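Counts of members called moved as follows, given without the share of all probe sets called in each fit. With the actin ratio as a covariate, chosen after seeing the data, they were 7 (Targretin liver), 7 (9cRA liver) and 1 (Targretin mammary gland). With array quality weights they were 7, 7 and 2 in liver, 2, 6 and 2 in lung (Targretin, 9cRA, 4HPR), 23 between liver and lung, and 4 and 1 for the organ difference of 9cRA and 4HPR. With only the 2 groups compared they were 5 (9cRA liver), 1 (4HPR liver) and 3 (Targretin mammary gland), with a pseudocount 4 times larger 1 (4HPR liver), and without a filter 3 (organ difference of Targretin). With the replicate number as a block Targretin mammary gland had 3; the numbers are not known to pair samples. Without the arrays in doubt they were 7 and 6 in liver (Targretin, 9cRA), 3 in Targretin mammary gland, and 3 and 1 for the organ difference of Targretin and 9cRA.

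Leaving out 1 array gave 0 to 7 in Targretin liver, 0 to 7 in 9cRA liver, 0 to 1 in 4HPR liver, 0 to 2 in Targretin lung, 1 to 11 in Targretin mammary gland, 10 to 14 between liver and lung, 11 to 20 between mammary gland and lung, 23 to 27 between mammary gland and liver and 2 to 7 for the organ difference of Targretin. The other 6 comparisons stayed at 0. Of 216 class medians recomputed, 210 stayed within 1 SD; quantile normalization moved those between liver and lung to -0.33 (alpha), -0.43 (beta), 0.18 (ATPases) and -0.37 (E2), and between mammary gland and lung to 0.45 (alpha) and -0.22 (beta).

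Values near 0 with no call changed sign; the cause was not tested. In Targretin lung Psmb5 became -0.088 (actin covariate), -0.10 (weights) and -0.091 (without the arrays in doubt), and Psmb9 -0.14 (actin covariate) and -0.15 (without the arrays in doubt); leaving out 1 array gave -0.091 to 0.26 for Psmb5 and -0.15 to 0.67 for Psmb9, the low ends without Targretin replicate 2. Psmb9 became -0.10 in Targretin liver (actin covariate) and, in Targretin mammary gland with 1 array left out, -0.17 to 0.053, above 0 without Targretin replicate 1 or diet replicate 4. Between liver and lung Psmb5 became -0.053 (quantile) and Psmb8 -0.068 (replicate block); leaving out 1 array gave -0.039 to 0.34 for Psmb8, below 0 without diet liver replicate 1 or diet lung replicate 3 or 4. Between mammary gland and lung Psmb9 became 0.046 (centred) and Psme1 -0.13 (quantile).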
